A study of Mus musculus with 6 samples.

Results

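The odorant receptor genes with symbols from Olfr1006 to Olfr1318 form the large class II receptor group of mouse chromosome 2. Members were the genes whose symbol is Olfr followed by a number in that range, each taken from a probe set that names this gene alone and, where a gene had several, from the one with the highest mean. This gave 223 members among 1015 odorant receptor genes and 19938 genes measured. The RefSeq annotation holds 237 genes with such symbols, and the other 14 have no probe set of their own on this array.

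The samples were cells sorted for green fluorescence out of main olfactory epithelium that had been microdissected from C57BL/6 mouse embryos at E18.5. In the targeted allele EGFP is driven by the promoter of Fezf1, so fluorescence marks cells in which that promoter is active. The 3 Fezf1-/- arrays hold cells with no intact copy of Fezf1, and the 3 Fezf1+/- arrays hold cells with 1 intact copy. Both groups carry the EGFP allele and no wild-type sample entered the comparison, and the labels do not say whether a sample was 1 embryo or a pool.

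Odorant receptors are G protein-coupled receptors that olfactory sensory neurons use to detect odours. Each mature neuron expresses a single receptor gene from a single allele, so the signal of a receptor in a sorted population reflects both how many neurons chose it and how much RNA each of them holds. In bulk samples such as these, fewer neurons with a receptor and less RNA per neuron cannot be told apart. Class II receptors are the larger, tetrapod-typical class, and their genes lie in clusters in which neighbours often arose by local duplication.

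Fezf1 encodes a zinc-finger transcription repressor of the olfactory epithelium and forebrain, and its own signal was checked first. It stood at 5.56, 5.92 and 6.28 log2 units on the Fezf1-/- arrays and at 11.25, 11.12 and 11.30 on the Fezf1+/- arrays. The groups were far apart, as the labels require (difference -5.31, SE 0.19, limma adjusted p = 0.000755). Array medians over all probe sets lay between 5.82 and 5.95. The array that stood apart was Fezf1-/- replicate 1, which correlated with the others at 0.905 to 0.935 across genes. On that array all 10 measured mature olfactory neuron markers were at the lowest value of the 6 arrays, while all 10 mesenchyme and bone markers and all 11 myeloid markers were at the highest. Results are therefore given with and without it. Mature neurons were present in every sort, since Omp, which encodes olfactory marker protein, stood at 9.09, 10.77 and 10.84 on the Fezf1-/- arrays and at 11.84, 11.82 and 12.12 on the Fezf1+/- arrays.

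The chromosome 2 receptors were lower as a group in Fezf1-/- cells, but very unevenly: single receptors fell to near the bottom of the signal range while others, some of them next to those on the chromosome, stayed close to the Fezf1+/- values on 2 of the 3 Fezf1-/- arrays. Of the 223 members, 25 fell and 0 rose at an adjusted p under 0.05 (limma, Benjamini-Hochberg adjustment over all genes). Of all 19938 genes tested, 0.552% passed that threshold, 0.456% as falls and 0.0953% as rises. At an unadjusted p under 0.05, 118 members were lower (5.25% of all genes) and 0 higher (4.23% of all genes). The difference, Fezf1-/- minus Fezf1+/- on the log2 scale, was negative for 217 members, against 45.2% of all genes, and its median over members was -0.82, against 0.02 over all genes. In 124 members all 3 Fezf1-/- values lay below all 3 Fezf1+/- values, as they did in 8.77% of all genes, and the opposite held for 0 members, against 9.72% of all genes.

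The shift was visible on every array. The median member signal was 4.27, 5.0 and 4.97 log2 units on the Fezf1-/- arrays and 5.70, 5.89 and 6.41 on the Fezf1+/- arrays. The number of members above the median probe set of their own array was 17, 76 and 78 in Fezf1-/- cells and 99, 110 and 141 in Fezf1+/- cells. The groups did not overlap in either measure, and Fezf1-/- replicate 1 was the lowest array in both.

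**Figure D1:**
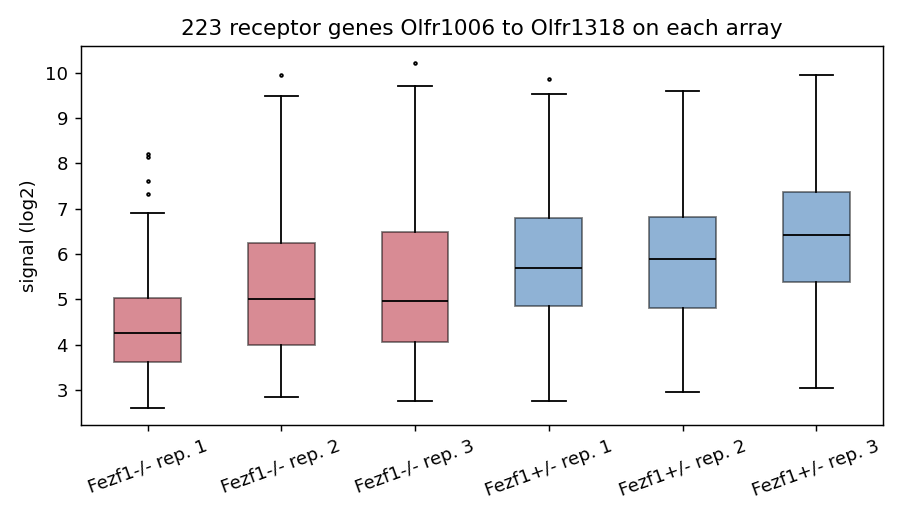
Signal in log2 units (vertical axis) of the 223 receptor genes Olfr1006 to Olfr1318 on each of the 6 arrays, Fezf1-/- in red and Fezf1+/- in blue; boxes span the quartiles, the line is the median, whiskers reach 1.5 times the box height and points lie beyond. The 3 Fezf1-/- medians (4.27, 5.0 and 4.97) all lie below the 3 Fezf1+/- medians (5.70, 5.89 and 6.41), while the upper ends of Fezf1-/- replicates 2 and 3 reach as high as those of the Fezf1+/- arrays.

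Without Fezf1-/- replicate 1, 55 members fell and 0 rose, against 1.67% and 0.993% of all genes. These 55 included all 25 called over 6 arrays. The median member difference was -0.56 in these 5 arrays, with 177 members negative (44.7% of all genes) and 46 positive. On the left-out array members lay a median of 0.78 log2 units below their mean on the other Fezf1-/- arrays (value -0.78). That shift was -0.24 for the 25 members called and -0.95 for the others, beside -1.53 for the mature neuron markers. The test over 6 arrays favours genes with little spread among the Fezf1-/- values. The smaller shift of the members called therefore follows in part from how they were chosen. What part of the shift on this array comes from its lower content of neuronal markers was not tested.

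The other 792 odorant receptors gave 53 falls and 0 rises over 6 arrays, a share of 6.69% against 11.2% of the chromosome 2 members, with a median difference of -0.69. Without Fezf1-/- replicate 1 they gave 133 falls, 16.8% against 24.7%, and 5 rises. The class I receptors Olfr543 to Olfr693, an older class clustered on another chromosome, gave 2 falls among 109 genes with a median of -1.04, and 19 falls, or 17.4%, with a median of -0.80 without that array. These figures are set side by side and the difference between the groups of receptors was not tested.

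Among members that fell, Olfr1208 had the lowest difference. Its signal was 3.58, 4.33 and 4.65 log2 units on the Fezf1-/- arrays and 8.33, 8.59 and 8.47 on the Fezf1+/- arrays (difference -4.28, SE 0.28, adjusted p = 0.0042). All Fezf1-/- values lay more than 3 log2 units below all Fezf1+/- values. Olfr1178 read 3.61, 3.60 and 3.40 in Fezf1-/- cells and 7.23, 7.22 and 7.82 in Fezf1+/- cells (difference -3.88, SE 0.19, adjusted p = 0.00198). Olfr1112 had the smallest p of the members, with 3.56, 3.67 and 3.82 in Fezf1-/- cells and 7.04, 6.75 and 6.99 in Fezf1+/- cells (difference -3.24, SE 0.12, adjusted p = 0.000755). In both receptors the Fezf1-/- values of all 3 arrays were low and close together, replicate 1 included. No ligand is assigned here to these receptors, which share the general role of odour detection.

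Olfr1097, Olfr1098 and Olfr1099 are consecutive on the chromosome and fell together. Olfr1097 stood at 3.65, 4.11 and 4.15 on the Fezf1-/- arrays and at 7.44, 6.94 and 7.29 on the Fezf1+/- arrays (difference -3.25, SE 0.19, adjusted p = 0.00355). Olfr1098 stood at 3.62, 3.99 and 3.80 in Fezf1-/- cells and at 6.21, 6.48 and 6.73 in Fezf1+/- cells (difference -2.67). Olfr1099 stood at 4.16, 3.88 and 4.32 in Fezf1-/- cells and at 6.50, 6.58 and 7.04 in Fezf1+/- cells (difference -2.59). In each of the 3 genes the groups were separated by more than 2 log2 units.

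Further along, Olfr1256 fell to 4.60, 4.70 and 5.17 in Fezf1-/- cells, against 7.37, 7.61 and 7.72 in Fezf1+/- cells (difference -2.74, SE 0.18, adjusted p = 0.0042). Olfr1228 fell by 2.88, with a mean of 3.68 ± 0.36 in Fezf1-/- cells and 6.55 ± 0.20 in Fezf1+/- cells (SD, n = 3 each). Olfr1202 fell by 2.60, with a mean of 4.75 ± 0.37 in Fezf1-/- cells and 7.35 ± 0.11 in Fezf1+/- cells (SD, n = 3 each). The differences of Olfr1200 and Olfr1280 were -2.52 and -2.51. Olfr1277 combined a moderate fall with little spread, at 4.84, 4.58 and 4.65 in Fezf1-/- cells and 6.34, 6.43 and 6.62 in Fezf1+/- cells (adjusted p = 0.0042). Olfr1260, with a difference of -3.02, varied more, at 4.07, 4.60 and 4.16 in Fezf1-/- cells and 6.51, 7.61 and 7.78 in Fezf1+/- cells (SE 0.36, adjusted p = 0.031).

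The other 12 members that fell were Olfr1126, Olfr1183, Olfr1195, Olfr1220, Olfr1223, Olfr1242, Olfr1262, Olfr1263, Olfr1264, Olfr1298, Olfr1314 and Olfr1316. Over all 25 the differences ran from -4.28 to -1.15 with a median of -2.51, so each was beyond 1 log2 unit in the deposited values. Their Fezf1-/- means ran from 3.22 to 5.70 and their Fezf1+/- means from 4.37 to 8.47, and 17 of them had a Fezf1-/- mean under the lower quartiles of all probe sets (4.30 to 4.44 on the 6 arrays). At such signals the size and order of falls depend on the background estimate, so no fold is given. Whichever single array was left out, 9 of the 25 were called, namely Olfr1097, Olfr1098, Olfr1099, Olfr1112, Olfr1178, Olfr1208, Olfr1228, Olfr1256 and Olfr1277.

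Some of these ended in a narrow band of low values in all 3 Fezf1-/- samples. Olfr1242 read 4.58, 4.56 and 4.64 in Fezf1-/- cells and 6.98, 6.37 and 7.39 in Fezf1+/- cells (difference -2.32). Olfr1316 read 3.66, 3.73 and 3.68 in Fezf1-/- cells and 5.12, 5.28 and 5.90 in Fezf1+/- cells (difference -1.74). In both genes the spread lay mostly among the Fezf1+/- arrays. At the other end of the range, Olfr1298 had low signals in either group, at 3.06, 3.26 and 3.35 in Fezf1-/- cells and 4.48, 4.48 and 4.16 in Fezf1+/- cells (difference -1.15), and when single arrays were left out in turn it was called in 1 of the 6 fits.

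Another 10 members were lower by over 2 log2 units without passing the test on 6 arrays. They were Olfr1090, Olfr1182, Olfr1204, Olfr1214, Olfr1251, Olfr1281, Olfr1289, Olfr1295, Olfr1297 and Olfr1301, named after their values were seen. In all 10 the groups did not overlap, against 8.77% of all genes in that direction. All 10 were called lower without Fezf1-/- replicate 1, against 1.67% of all genes. They were picked by the size of the difference on the same arrays, which makes both outcomes likely, so neither is separate support. Olfr1251, nearest to the threshold, read 3.00, 3.75 and 4.39 in Fezf1-/- cells and 6.13, 6.50 and 6.83 in Fezf1+/- cells (difference -2.77, SE 0.38, adjusted p = 0.0533). Olfr1297 was lowest by far on that array, at 3.73, 5.51 and 5.51 in Fezf1-/- cells and 7.09, 7.51 and 7.62 in Fezf1+/- cells (difference -2.49, adjusted p = 0.16, and 0.00306 without it). Olfr1264, the called member with the largest adjusted p, had a value of 0.0404.

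**Figure D2:**
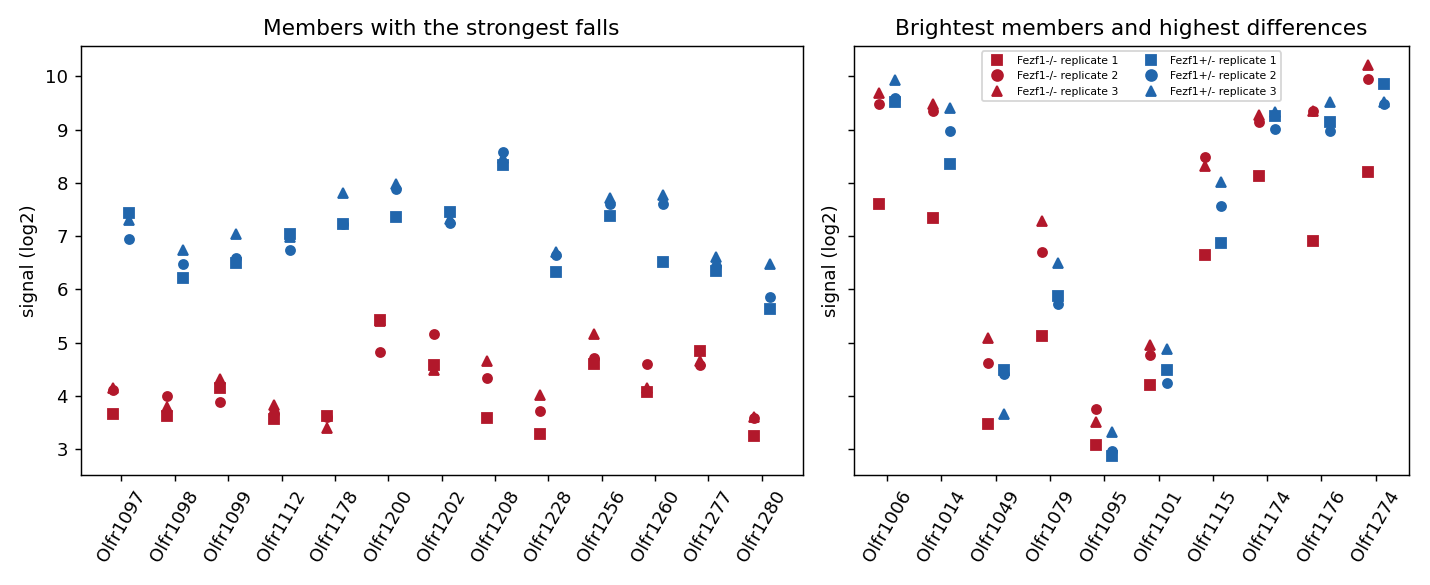
Signal in log2 units (vertical axis) on each array for single receptor genes, with Fezf1-/- in red at the left of each gene and Fezf1+/- in blue at the right, and the replicate given by the symbol; genes run in number order. In the left panel the 3 Fezf1-/- values of each of 13 genes lie below all its Fezf1+/- values; in the right panel, with the members of highest signal and of highest difference, Fezf1-/- replicate 1 is mostly low and replicates 2 and 3 lie close to or above the Fezf1+/- values.

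The 5 members with the highest signal on Fezf1+/- arrays did not pass the test, whereas 2 of the 14 members with a Fezf1+/- mean above 8 did, Olfr1208 and Olfr1264. Members were split by that mean into 3 classes of like size. In the highest class 12 of 75 fell, in the middle one 10 of 74 and in the lowest 3 of 74. Without Fezf1-/- replicate 1 these counts were 19, 22 and 14. At an unadjusted limma p under 0.05 the order was reversed, with 29, 41 and 48 members lower over 6 arrays (5.25% of all genes). All Fezf1-/- values lay below all Fezf1+/- values in 32, 42 and 50 members (8.77% of all genes). The mean used for the split is also part of the difference. Signals of different probe sets do not rank RNA amounts, so each gene is compared only with itself. Olfr1006 stood at 7.60, 9.49 and 9.70 in Fezf1-/- cells and at 9.53, 9.59 and 9.94 in Fezf1+/- cells (difference -0.75, SE 0.56, adjusted p = 0.711). Olfr1274 stood at 8.21, 9.95 and 10.21 in Fezf1-/- cells and at 9.85, 9.48 and 9.52 in Fezf1+/- cells (difference -0.16, SE 0.53, adjusted p = 0.927). In both genes only Fezf1-/- replicate 1 was clearly below the Fezf1+/- range. Without that array Olfr1006 had a difference of -0.09 (95% interval -0.45 to 0.26) and Olfr1274 one of 0.46 (0.11 to 0.82, adjusted p = 0.197).

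Olfr1174, Olfr1176 and Olfr1014 behaved alike on the single arrays. Olfr1176 stood at 6.90, 9.35 and 9.36 in Fezf1-/- cells and at 9.14, 8.98 and 9.52 in Fezf1+/- cells. Olfr1174 stood at 8.13, 9.14 and 9.27 in Fezf1-/- cells and at 9.25, 9.01 and 9.34 in Fezf1+/- cells. Fezf1-/- replicates 2 and 3 were within the Fezf1+/- range in both genes. Without replicate 1 the difference was 0.14 for Olfr1176 (95% interval -0.24 to 0.53), 0.00 for Olfr1174 (-0.29 to 0.30) and 0.50 for Olfr1014 (-0.17 to 1.17), so a 2-fold fall lay outside each interval.

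Positive differences were few and small. They occurred in Olfr1095 (0.39), Olfr1079 (0.34), Olfr1115 (0.32), Olfr1049 (0.21), Olfr1101 (0.11) and Olfr1113 (0.05), all with an adjusted p of 0.618 or more. Olfr1079 stood at 5.12, 6.71 and 7.28 in Fezf1-/- cells and at 5.88, 5.73 and 6.50 in Fezf1+/- cells, so replicates 2 and 3 were above and replicate 1 below the Fezf1+/- values. Without replicate 1 its difference was 0.96 (SE 0.26, adjusted p = 0.137), and that of Olfr1115 was 0.91 (SE 0.30, adjusted p = 0.215). No member was called higher in these 5 arrays, and 8 had an unadjusted p under 0.05 in that direction, against 7.63% of all genes. In the same fit 116 members were lower at that p, against 8.68% of all genes.

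The number in the symbol follows the order on the chromosome. In the RefSeq annotation 232 of 233 steps from one protein-coding gene of the range to the next lead to a higher number. The genes lie in 2 runs, with members from Olfr1006 to Olfr1274 in the first and from Olfr1275 to Olfr1317 in the second, and with 119 other protein-coding genes between them. The runs held 187 and 34 members, and 2 members were not among the protein-coding genes.

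Along this order the falls were not evenly placed. Among the 34 members from Olfr1006 to Olfr1050, limma called 0 at the adjusted threshold and 2 at an unadjusted p under 0.05. Over all genes 0.456% fell at the adjusted threshold and 5.25% were lower at that unadjusted p. Among the 78 members from Olfr1201 to Olfr1300, 14 fell and 64 were below 0.05 before adjustment. The numbers called in the blocks between were 3 of 29 from Olfr1051 to Olfr1100, 2 of 34 from Olfr1101 to Olfr1150 and 4 of 33 from Olfr1151 to Olfr1200, and 2 of 15 fell from Olfr1301 to Olfr1318. The median difference was -0.60, -0.55, -0.73, -0.90, -1.40, -1.15 and -0.83 in the 7 blocks in number order. All 3 Fezf1-/- values were below all Fezf1+/- values in 2 of the 34 first members and in 65 of the 78 from Olfr1201 to Olfr1300. The share over all genes was 8.77%.

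**Figure D3:**
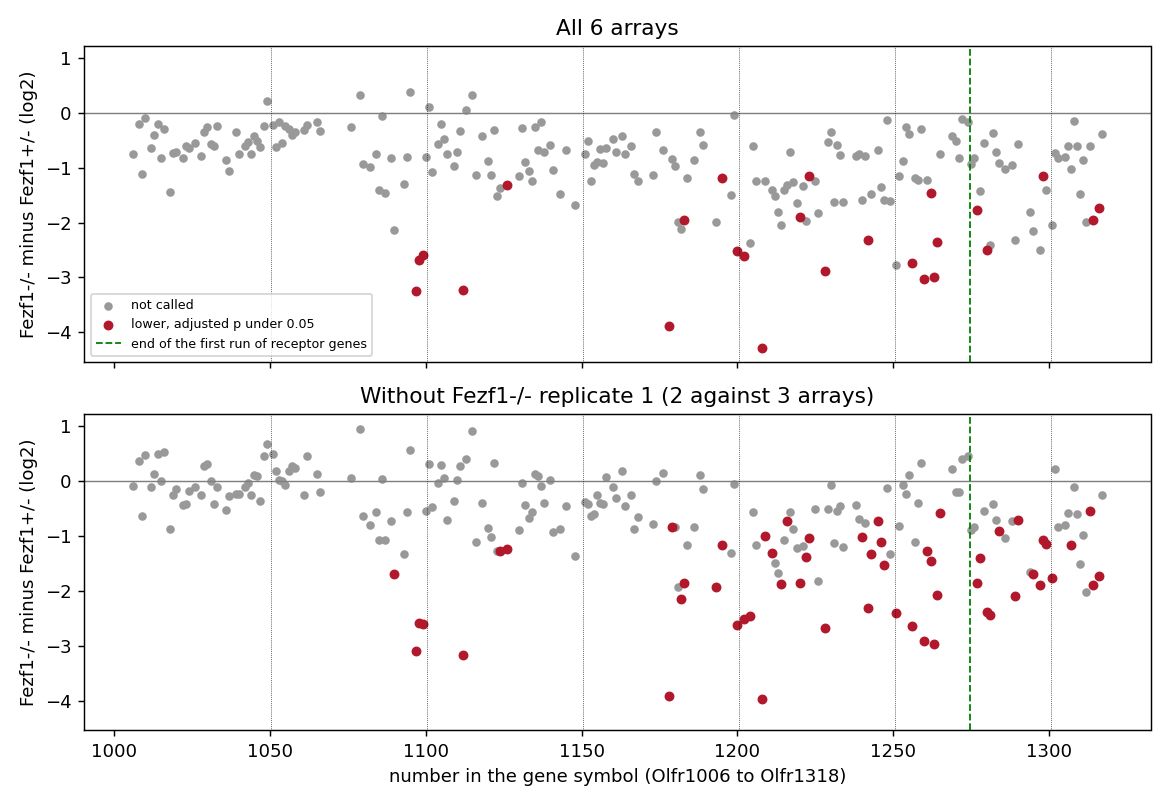
Difference Fezf1-/- minus Fezf1+/- in log2 units (vertical axis) of each of the 223 receptor genes against the number in its symbol (horizontal axis), for all 6 arrays above and without Fezf1-/- replicate 1 below; red points are genes lower at an adjusted p under 0.05, dotted lines mark the blocks of numbers and the dashed line the end of the first run. Points from Olfr1006 to Olfr1050 hold no red point in either panel, while those from Olfr1201 to Olfr1300 hold 14 above and 36 below.

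The contrast along the order was present in the 5 arrays without Fezf1-/- replicate 1 as well. There the first block had a median of -0.11, from -0.87 to 0.67, with 0 called by limma. Before adjustment 2 of its members were lower and 3 higher at a p under 0.05, against 8.68% and 7.63% of all genes. A 2-fold fall lay outside the 95% interval of 25 of its 34 members, against 3 of the 34 when all 6 arrays are used. Members from Olfr1201 to Olfr1300 had a median of -1.07, 36 of 78 fell, against 1.67% of all genes, and 44 were at least 2-fold lower. The block medians without that array were -0.11, -0.20, -0.42, -0.60, -1.12, -0.90 and -0.84. These are descriptions over genes measured on the same arrays, and the difference between blocks was not tested.

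On the single arrays, the first block had median signals of 5.15, 6.62 and 6.98 in Fezf1-/- cells and 6.59, 6.64 and 7.11 in Fezf1+/- cells. There the groups overlapped apart from Fezf1-/- replicate 1. Members from Olfr1201 to Olfr1300 had medians of 4.12, 4.55 and 4.41 in Fezf1-/- cells and 5.61, 5.88 and 6.31 in Fezf1+/- cells, so that here each Fezf1-/- array was more than 1 log2 unit below each Fezf1+/- array. The stretch from Olfr1201 to Olfr1300 spans the gap between the runs. Its members from Olfr1275 on also belong to the second run, so the 2 sets are not separate. The second run gave 5 falls among 34 members, against 0.456% of all genes, with a median of -0.98. Without Fezf1-/- replicate 1 it gave 16, against 1.67% of all genes, with 33 of the 34 differences negative.

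**Figure D4:**
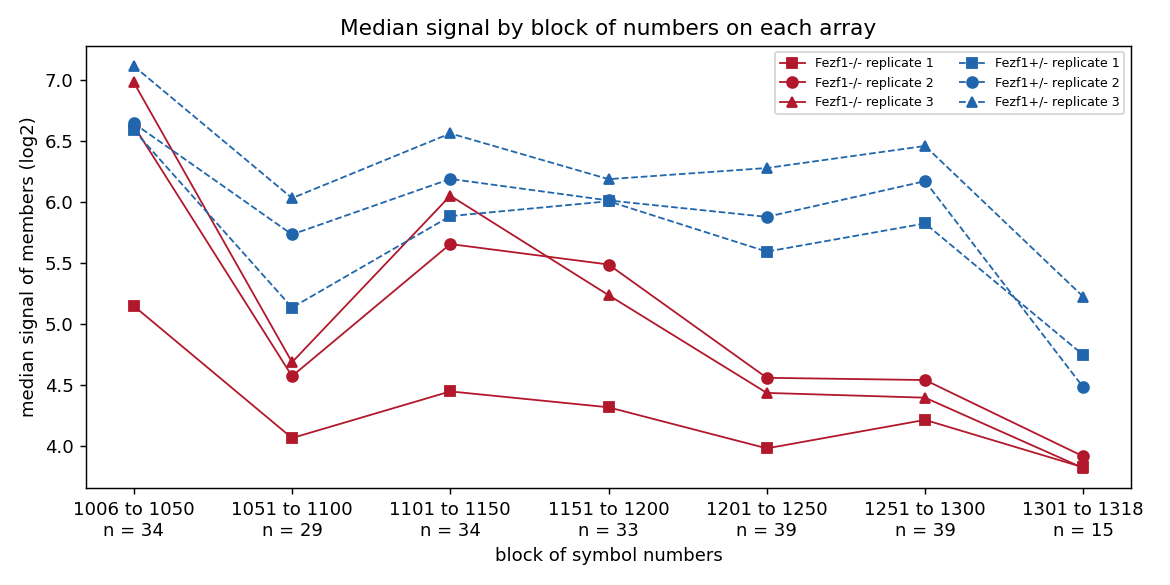
Median signal in log2 units (vertical axis) of the members in each block of symbol numbers (horizontal axis, with the number of members), 1 line per array, Fezf1-/- in red with solid lines and Fezf1+/- in blue with dashed lines. In the block from Olfr1006 to Olfr1050 the lines of Fezf1-/- replicates 2 and 3 lie among the Fezf1+/- lines (6.62 and 6.98), and from Olfr1201 on all 3 Fezf1-/- lines lie below the Fezf1+/- lines.

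The member with the lowest p of the first block was Olfr1018, which did not pass. It stood at 3.71, 5.76 and 5.11 in Fezf1-/- cells and at 6.32, 6.17 and 6.43 in Fezf1+/- cells (difference -1.45, SE 0.50, adjusted p = 0.447). The lowest p of the last block was that of Olfr1314, which fell to 3.85, 4.31 and 3.82 in Fezf1-/- cells, against 6.16, 5.63 and 6.06 in Fezf1+/- cells (difference -1.96, adjusted p = 0.0215).

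Within the general course, direct neighbours could differ sharply. Of 222 pairs of members next to each other in number order, 12 differed by more than 2 log2 units in their difference, and in 6 pairs both members fell. The correlation of the differences of neighbours was 0.218, and 0.345 without Fezf1-/- replicate 1, over pairs that share the arrays. The examples that follow were chosen after their values were seen, apart from the members already named.

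Olfr1112 fell by 3.24 between Olfr1111, with a difference of -0.33, and Olfr1113, with one of 0.05. Olfr1113 stood at 5.02, 5.78 and 6.37 in Fezf1-/- cells and at 5.70, 5.51 and 5.81 in Fezf1+/- cells, so its groups overlapped. Olfr1178 fell by 3.88 next to Olfr1176 (-0.68, and 0.14 without Fezf1-/- replicate 1), and Olfr1179 on its other side differed by -0.85 (adjusted p = 0.0862). Olfr1097 fell by 3.25 while the nearest measured member before it, Olfr1095, differed by 0.39, although Olfr1095 lay between 2.88 and 3.74 on all arrays, near the bottom of the signal range.

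Falls of 3 members in a row occurred at Olfr1097 to Olfr1099 and at Olfr1262 to Olfr1264. Around the second of these, Olfr1260 (-3.02), Olfr1262 (-1.45), Olfr1263 (-3.00) and Olfr1264 (-2.36) fell, and Olfr1261 between them differed by -1.23 (adjusted p = 0.115, and 0.0425 without Fezf1-/- replicate 1). Olfr1264 stood at 5.14, 6.04 and 5.93 in Fezf1-/- cells and at 7.73, 8.01 and 8.45 in Fezf1+/- cells. The groups of Olfr1259, just before this stretch, overlapped, as it stood at 5.84, 7.96 and 7.44 in Fezf1-/- cells and at 7.73, 6.95 and 7.44 in Fezf1+/- cells (difference -0.29).

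**Figure D5:**
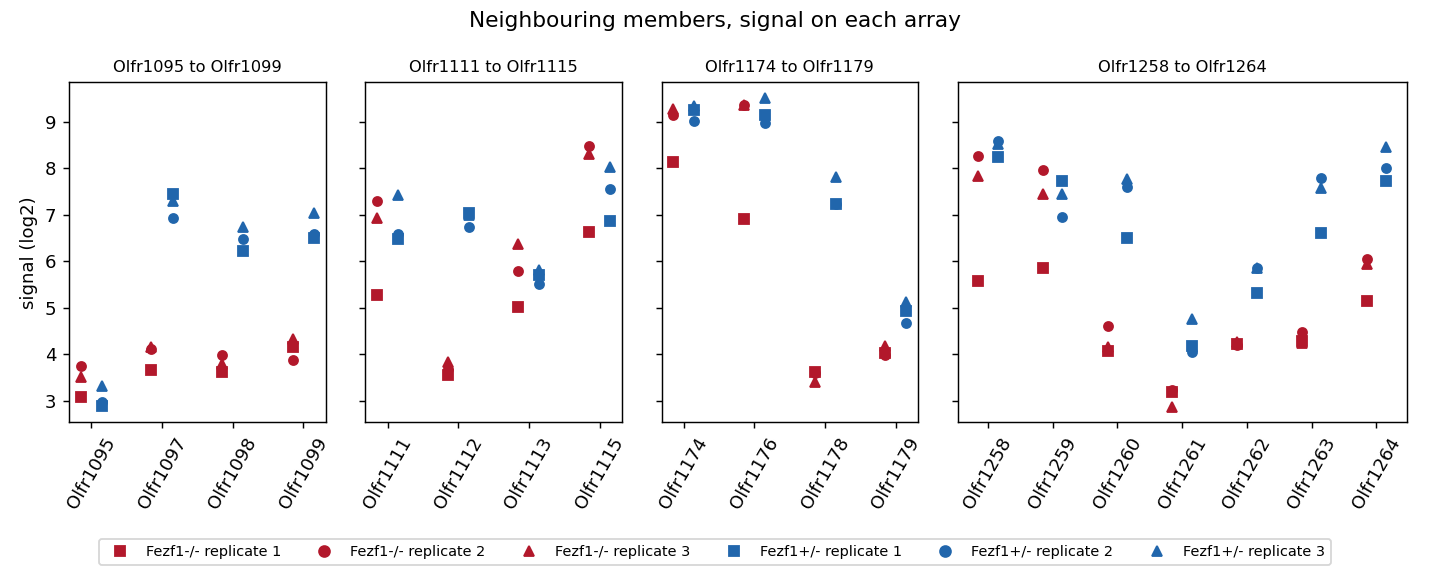
Signal in log2 units (vertical axis) on each array for 4 stretches of neighbouring receptor genes in number order, Fezf1-/- in red at the left of each gene and Fezf1+/- in blue at the right, with the replicate given by the symbol. Olfr1112 and Olfr1178 are separated between the groups while Olfr1113 and Olfr1176 beside them overlap, and Olfr1260 to Olfr1264 are all lower in Fezf1-/- cells next to Olfr1259, whose groups overlap.

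Neighbouring receptors can share sequence, and a probe set may then read a close relative too. The RefSeq promoter table of GRCm38.p6 matched 185 of the 223 members with 187 windows of 250 bases before to 50 after the gene's start. In 134 of these windows the gene model starts with ATG at its first base, so its start is that of the coding sequence. The first 50 coding bases were compared among those 134 genes, position by position and without alignment. They had a median of 40 identical to the most similar other gene of the 134, 33 genes had 45 or more and 9 had all 50. Olfr1249, Olfr1251 and Olfr1253 were among these, and Olfr1261, Olfr1262 and Olfr1263 each had 49 of 50 in common with another gene of that trio, so the values of both trios are uncertain as single genes. The same holds for Olfr1280, which fell and shares 49 of the 50 bases with Olfr1283, a member with a difference of -0.70 (adjusted p = 0.154). Olfr1112 had at most 22 in common with another of the 134 genes, and Olfr1098 at most 35. The remaining members and the rest of the coding sequence were not compared. Low counts therefore do not show that a probe set reads 1 gene alone.

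Receptor promoters are known for binding sites of Ebf factors and of homeodomain proteins such as Lhx2. The Ebf-type motif, TCCC and GGGA with any 2 bases between them, occurred in 0 of the 187 member windows on either strand, and in 0.9% of all 32851 windows of the table. The homeodomain-type motif TAATTA, which reads the same on both strands, occurred in 49 windows, or 26.2%, against 16.8% of the 757 windows of other odorant receptors and 5.29% of all windows. The windows of all genes are unlike these, since 5.83% of them start at ATG, against 71.7% of the member windows and 72.8% of those of other odorant receptors. It was in 6 of the 21 windows of members that fell and in 43 of the 166 windows of members not called. Of the 46 windows of members that fell without Fezf1-/- replicate 1, 17 held it. The related motif TAATGA, searched on both strands, occurred in 4 of those 21 and 48 of those 166 windows, 27.8% of the member windows in all, against 9.78% of the table and 29.1% of the windows of other odorant receptors. It was in 8 of the 46 windows of members that fell without Fezf1-/- replicate 1. Matches of these motifs may overlap each other, and a match is only a run of letters in a window. In most of these genes the window lies just upstream of the coding start and may not hold the promoter. The counts, that of 0 included, are therefore not counts of promoter sites.

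The 250 bases before the annotated start are shown for the member with the lowest difference, for the consecutive genes Olfr1097 to Olfr1099 that fell together, and for Olfr1006 and Olfr1274, whose signals on Fezf1-/- replicates 2 and 3 were near the Fezf1+/- range. Each is given from 5′ to 3′ on the strand of its gene, from RefSeq on GRCm38.p6, with TAATTA in capitals. Olfr1098 and Olfr1099 start at ATG in the annotation, and the other 4 do not.
Olfr1208 (chr2:88897649-88897898, minus strand): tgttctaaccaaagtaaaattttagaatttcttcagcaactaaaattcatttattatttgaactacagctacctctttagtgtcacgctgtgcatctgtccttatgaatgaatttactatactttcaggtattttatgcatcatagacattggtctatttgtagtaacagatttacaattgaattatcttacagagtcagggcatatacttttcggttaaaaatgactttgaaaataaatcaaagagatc
Olfr1097 (chr2:86892164-86892413, minus strand): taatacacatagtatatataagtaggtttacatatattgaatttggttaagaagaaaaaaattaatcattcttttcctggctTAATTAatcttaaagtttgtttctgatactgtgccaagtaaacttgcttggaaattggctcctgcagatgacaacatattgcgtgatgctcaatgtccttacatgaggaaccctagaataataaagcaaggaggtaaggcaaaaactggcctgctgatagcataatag
Olfr1098 (chr2:86923531-86923780, minus strand): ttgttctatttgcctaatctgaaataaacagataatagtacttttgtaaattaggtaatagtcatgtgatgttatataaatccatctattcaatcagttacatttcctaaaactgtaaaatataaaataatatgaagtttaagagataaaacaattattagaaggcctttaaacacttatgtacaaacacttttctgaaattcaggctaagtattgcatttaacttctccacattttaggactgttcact
Olfr1099 (chr2:86959457-86959706, minus strand): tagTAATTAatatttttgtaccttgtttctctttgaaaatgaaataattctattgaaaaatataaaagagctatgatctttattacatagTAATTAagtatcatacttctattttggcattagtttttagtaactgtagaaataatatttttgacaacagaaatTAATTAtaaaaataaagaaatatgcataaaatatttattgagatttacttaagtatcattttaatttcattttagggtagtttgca
Olfr1006 (chr2:85678742-85678991, minus strand): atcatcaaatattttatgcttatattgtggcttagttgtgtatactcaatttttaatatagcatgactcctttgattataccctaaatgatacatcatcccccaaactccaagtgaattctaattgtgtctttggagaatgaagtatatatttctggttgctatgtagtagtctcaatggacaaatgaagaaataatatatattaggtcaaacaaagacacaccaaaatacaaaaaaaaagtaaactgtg
Olfr1274 (chr2:90400390-90400639, plus strand): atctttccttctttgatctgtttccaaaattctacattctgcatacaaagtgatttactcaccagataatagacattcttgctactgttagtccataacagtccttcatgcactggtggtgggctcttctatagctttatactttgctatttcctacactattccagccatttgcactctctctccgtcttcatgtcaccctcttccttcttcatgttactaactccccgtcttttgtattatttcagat
Olfr1097 has 1 match, starting 168 bases before the start, and Olfr1099 has 3, starting 247, 160 and 86 bases before it. The other 4 sequences shown have 0 matches, among them Olfr1208 and Olfr1098, which fell, and Olfr1006 and Olfr1274, which were not called.

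Receptors signal through the olfactory G protein, adenylate cyclase Adcy3 and a cyclic nucleotide-gated channel, and reach the membrane with the help of Rtp proteins. For 20 measured genes of transduction and receptor transport, limma called 0 falls and 1 rise, against 0.456% and 0.0953% of all genes. Before adjustment 13 of them were lower and 1 higher at a p under 0.05, against 5.25% and 4.23% of all genes. The median difference was -1.04. Grk3, a kinase that desensitises activated receptors, rose to 5.98, 5.87 and 5.95 in Fezf1-/- cells, against 5.07, 5.19 and 5.09 in Fezf1+/- cells (difference 0.82, adjusted p = 0.0219). Adcy3 stood at 7.63, 8.59 and 8.73 in Fezf1-/- cells and at 9.43, 9.43 and 9.92 in Fezf1+/- cells (difference -1.28, adjusted p = 0.263). Without Fezf1-/- replicate 1 the median of the list was -0.71, 5 genes fell and 1 rose. The shares of all genes there were 1.67% and 0.993%. Of 10 mature neuron markers limma called 0 over 6 arrays, and 4 were lower before adjustment, against 5.25% of all genes. Their median was -0.92, and without that array it was -0.47 with 3 that fell. Omp, Stoml3 and Rtp1 are in both lists, so the lists are not separate. Omp and Stoml3 are among the genes that fell without that array in each. The part that a lower share of mature neurons has in the receptor values was not tested.

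Genes that act in receptor choice and expression, such as Lhx2, Ldb1, the Ebf factors and the histone demethylase Kdm1a, formed a separate list. Of 22 measured, limma called 0, and 1 was lower before adjustment, against 5.25% of all genes. The median difference was -0.15, or 0.04 in the 5 arrays without Fezf1-/- replicate 1. In those 5 arrays 1 of the 22 fell, Nfix (difference -0.72, adjusted p = 0.0416), against 1.67% of all genes. Lhx2, a homeodomain factor that class II receptors need, stood at 10.23, 11.39 and 11.53 in Fezf1-/- cells and at 11.40, 10.95 and 11.24 in Fezf1+/- cells (difference -0.15, adjusted p = 0.902). Ebf4 had the smallest p of this list, at 7.33, 8.42 and 8.29 in Fezf1-/- cells and 8.95, 8.77 and 8.77 in Fezf1+/- cells (difference -0.82, adjusted p = 0.46).

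Among markers of other cell types limma called 1 gene over 6 arrays, Gnai2 of the vomeronasal neuron list, which encodes a G protein subunit and rose (difference 1.17). Before adjustment 1 more vomeronasal, 1 immature neuron and 1 sustentacular marker had a p under 0.05, all higher (4.23% of all genes). The median differences were 0.73 for 10 mesenchyme and bone markers, 0.81 for 11 myeloid markers, 0.37 for 8 endothelial markers, 0.44 for 5 ensheathing glia markers, 0.32 for 3 erythroid markers, -0.15 for 8 sustentacular markers and -0.08 for 7 progenitor markers. Without Fezf1-/- replicate 1 these medians were -0.11, 0.06, -0.21, 0.11, -0.04, -0.55 and 0.29. The 12 immature neuron markers had a median of -0.11, and 0.33 without that array, where 3 rose (0.993% of all genes). The 7 vomeronasal markers had a median of 0.21, with 4 differences positive and 3 negative. Without that array their median was 0.38, with 5 positive and 2 negative.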

How the data were processed

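RNA (100 ng) of 3 Fezf1-/- and 3 Fezf1+/- sorts was biotin-labelled and hybridised to Affymetrix 1.0 ST arrays, per the labels' protocols and the series' design text. The authors deposited log2 signals of probe sets, for which the submitters' processing notes name GCRMA and Affymetrix Expression Console. The log base was taken from the values, and other steps are not given in the sources used here. GCRMA subtracts an estimated background, so log2 differences near the bottom of the range depend on that estimate. Of 35557 probe sets, 21789 carried 1 symbol in the platform annotation of 2016, and symbols were updated to RefSeq names of GRCm38.p6 by Entrez number for 21698. The files name no build, so gene positions are not given from them.

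Limma 3.58.1 in R 4.3.3 (lmFit, eBayes, two-sided) was fitted on 19938 genes without a filter, with Benjamini-Hochberg adjustment over all of them and a threshold of 0.05; every adjusted p is from limma. Nothing says that replicates were separate embryos, so p-values reflect only the spread of these samples, and 3 arrays per group limit precision. The code was tested on simulated data. Members, lists and blocks were chosen with earlier results of these data known. Named members were the 12 smallest adjusted p and 5 lowest differences among those called, the 5 highest on Fezf1+/- arrays, the 5 highest differences and the lowest p of each block; from each pathway list up to 4 called genes or the 2 with the smallest p. Genes outside this rule were named after their values were seen. Protein sequences were not used here, and 4 pseudogenes in the number range were left out. Alternatives were quantile normalisation, median centring, a filter, averaged probe sets, a pseudocount of 16, other variance priors, array weights, an unmoderated test, a replicate block and leaving out each array.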

Additional observations from a re-analysis of the deposited data

How the results depend on the processing

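With each array left out in turn, the number of members called lower ran from 11 to 55 and that from Olfr1201 to Olfr1300 from 5 to 36, against 25 and 14 over 6 arrays. The counts were 55 and 36 without Fezf1-/- replicate 1, 11 and 5 without Fezf1-/- replicate 2, 13 and 6 without Fezf1-/- replicate 3, 21 and 13 without Fezf1+/- replicate 1, 17 and 9 without Fezf1+/- replicate 2 and 11 and 5 without Fezf1+/- replicate 3. The median of the members from Olfr1006 to Olfr1050 ran from -0.95 to -0.11 and that of all members from -1.05 to -0.56. Array weights gave 76 and 46 calls, with a median of -0.17 from Olfr1006 to Olfr1050. A pseudocount of 16 on the linear scale gave 16 and 8 calls and a median of -0.86 from Olfr1201 to Olfr1300; it shrinks low signals by construction. Testing only genes above the median mean left 53 members and gave 1 and 0 calls. That mean is over all 6 arrays, so a fall itself lowers it and can remove a member. The unmoderated test, with 8 genes called in all, gave 1 and 0. Quantile normalisation, median centring and the trend and robust prior each gave 25 and 14, and averaged probe sets 24 and 14. With the replicate number as a block 17 members were called, 14 of them among the 25. The labels do not say whether the number pairs the samples. The deviations of same-numbered arrays from their group means correlated at 0.225, -0.332 and 0.541. With so few arrays these values cannot decide whether samples were paired. In every one of these 15 alternatives 0 members were called higher, 0 from Olfr1006 to Olfr1050 were called lower, and Fezf1 was called lower. Scaling moved the median of all genes by less than 0.1 log2 units. Signal over background could not be examined per probe, so low values limit the size of the falls.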

Other observations

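Probe sets that name several receptors were left out of the members, and 16 of them name at least 1 gene of the range. A pair of these carry the same symbols and the same values, which leaves 15. All 15 had a negative difference over 6 arrays, against 45.2% of all genes, with a median of -1.01. In 10 of them the 3 Fezf1-/- values were below the 3 Fezf1+/- values, against 8.77% of all genes. Without Fezf1-/- replicate 1, 13 were negative, against 44.7% of all genes, and 2 positive. Their median was then -0.81, with a range from -3.53 to 0.71. The probe set shared by Olfr1196 and Olfr1197 read 4.17, 4.36 and 4.26 log2 units in Fezf1-/- cells and 7.58, 7.94 and 7.99 in Fezf1+/- cells, a difference of -3.57. A probe set of 6 receptors from Olfr1280 to Olfr1287 read 3.36, 3.48 and 3.76 in Fezf1-/- cells and 6.50, 6.55 and 6.61 in Fezf1+/- cells, a difference of -3.02. The second of these names Olfr1280 itself, so it is no separate reading of that gene.

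The 4 pseudogenes of the number range also had negative differences over 6 arrays, from -2.46 to -0.05, while without Fezf1-/- replicate 1 they ran from -1.76 to 0.37 with 1 positive. Olfr1300-ps1 read 3.35, 5.36 and 5.52 in Fezf1-/- cells and 7.22, 7.24 and 7.14 in Fezf1+/- cells (difference -2.46). Olfr1273-ps, beside Olfr1274 at the end of the first run, read 4.68, 5.79 and 6.11 in Fezf1-/- cells and 5.12, 5.39 and 6.23 in Fezf1+/- cells (difference -0.05, and 0.37 without Fezf1-/- replicate 1), and its groups overlapped. None of these probe sets counted as a member, and those that name several receptors did not enter the fit across genes. The 4 pseudogenes have 1 symbol each and were among the 19938 genes fitted, but their values are given without a test.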
